A study of Homo sapiens with 24 samples.

Results

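PDE10A and 9 other genes for cyclic nucleotide phosphodiesterases were followed through 24 bulk RNA sequencing libraries of human embryonic stem cells taken toward heart muscle. They were taken by name, as the rows of the count table that map to PDE10A, PDE1A, PDE1C, PDE2A, PDE3A, PDE4B, PDE4D, PDE5A, PDE8A and PDE8B, and are 10 of 62757 genes counted. They are also 10 of the 24 genes of the phosphodiesterase family considered here, and the other 14 are given beside them. The family is taken by gene name, whether or not each gene encodes a subunit that cuts cyclic nucleotides. PDE10A was chosen by its low counts in the AM ZNF711 libraries against the AM TRAC libraries. Its values in those 2 groups are therefore a description, and no p is given for it in a comparison that uses either group. Where a count of called genes there includes it, the text says so, and nothing is read from its being in the count. The rule does not say which values, if any, led to the remaining 9 genes.

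All cells came from the HES3 line with reporters at 2 loci, a GFP at NKX2-5 and an mCherry at NR2F2, and were differentiated as embryoid bodies with modulation of Wnt signalling for at most 14 days. The 4 lines were labelled as CRISPR-Cas9 knockouts of LHX2, ZNF503, ZNF711 or, as the control, TRAC. Each was taken through an AM condition with retinoic acid added on day 4 and a VM condition without it, so that AM is taken to mean atrial and VM ventricular. This gave 8 groups of 3 libraries. The labels do not say how many clones a line held or whether replicates were separate differentiations, so p-values measure the spread between these libraries, which may be technical.

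Cyclic AMP and cyclic GMP are second messengers, made by adenylyl and guanylyl cyclases and broken down only by phosphodiesterases. In heart muscle cells cyclic AMP carries the beta-adrenergic signal to contraction and pacing, and cyclic GMP carries the signals of nitric oxide and natriuretic peptides. The enzymes differ in what they cut: PDE4 and PDE8 cut cyclic AMP, PDE5 cuts cyclic GMP, and PDE1, PDE2, PDE3 and PDE10 cut both. PDE10A is best known from the medium spiny neurons of the striatum.

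Total counts were 2899786 to 7438010 per library, with a median of 5113566.5, and 3 counts corresponded to 0.447 to 0.963 CPM (counts scaled to the library's total, with TMM factors). Of the 10 genes, 8 passed the filter on low counts and were tested, among 17724 genes. The 2 others, PDE1A and PDE8B, had too few counts. The targeted genes did not check every label: TRAC had 0 to 19 counts and LHX2 0 to 34 counts in any library, so neither can be read, and ZNF503 RNA was higher in the libraries labelled ZNF503 (255, 367 and 269 CPM in AM) than in AM TRAC (103, 111 and 123 CPM). ZNF711 RNA was 55.8, 41.1 and 31.2 CPM in AM ZNF711 and 55.5, 60.3 and 47.4 CPM in AM TRAC, which overlap. In VM it was lower without overlap, at 32.9, 33.9 and 25.9 CPM in ZNF711 and 48, 37.5 and 34.6 CPM in TRAC. The share of all genes without overlap there was not counted. The label of all libraries is cardiomyocyte, and 10 cardiomyocyte genes summed to 15000 to 29600 CPM in AM and 11500 to 41900 CPM in VM libraries. In 2 VM libraries 7 genes of hepatic endoderm summed to more than these, at 18620 against 11550 CPM in VM ZNF711 replicate 3 and 17490 against 15350 CPM in VM TRAC replicate 3.

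The start sites of the genes that were higher in AM do not share a base composition, which is why 4 stretches of them are shown. The letters come from the RefSeq promoter table for GRCh38.p14, cut to the bases of the window ahead of any GENCODE 29 exon of the gene inside that window, and CpG dinucleotides are in capitals. The PDE2A stretch lies ahead of the whole gene, whereas the PDE10A stretch and both PDE4D stretches lie within the gene, with other exons farther upstream. Each is written 5′ to 3′ on the minus strand, which is the strand of all 3 genes.
PDE10A, chr6:165663246-165663491: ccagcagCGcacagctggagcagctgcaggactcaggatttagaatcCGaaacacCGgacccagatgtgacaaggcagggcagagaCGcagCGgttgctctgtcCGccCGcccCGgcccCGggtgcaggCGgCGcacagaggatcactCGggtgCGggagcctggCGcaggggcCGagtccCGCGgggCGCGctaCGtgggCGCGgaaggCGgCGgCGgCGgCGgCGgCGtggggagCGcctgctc
PDE2A, chr11:72674592-72674672: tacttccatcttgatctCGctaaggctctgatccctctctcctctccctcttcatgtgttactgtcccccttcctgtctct
PDE4D, chr5:59039516-59039726: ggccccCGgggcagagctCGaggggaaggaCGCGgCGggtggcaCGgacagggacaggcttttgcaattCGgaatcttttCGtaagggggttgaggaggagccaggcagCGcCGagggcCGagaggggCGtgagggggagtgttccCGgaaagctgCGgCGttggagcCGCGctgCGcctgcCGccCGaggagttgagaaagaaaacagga
PDE4D, chr5:60496287-60496536: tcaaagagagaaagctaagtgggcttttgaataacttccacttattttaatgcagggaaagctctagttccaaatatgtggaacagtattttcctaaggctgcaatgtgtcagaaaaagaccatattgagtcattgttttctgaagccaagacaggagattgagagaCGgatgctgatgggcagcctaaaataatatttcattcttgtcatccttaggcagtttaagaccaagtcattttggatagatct

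The PDE10A stretch held 30 CpG in 246 bases and the PDE2A stretch 1 CpG in 81 bases. The first PDE4D stretch held 20 CpG in 211 bases and the second, from a start site farther upstream in the same gene, 1 CpG in 250 bases. Over whole windows of 300 bases, the 10 genes had 41 windows, with 30.7% to 77.3% G or C and 0 to 44 CpG, against medians of 58.7% and 14.0 over 35116 windows of all genes. The only window of PDE3A, inside the gene, had 35% G or C and 0 CpG. On both strands, the cyclic AMP response element TGACGTCA was in 0 of the 41 windows (1.85% of all windows) and its core TGACG, which lies within it, in 2 (24.6%). The nuclear receptor motif AGGTCA was in 3 of 41 windows (13.8% of all), TATAAA in 3 (11.5%), CACGTG in 2 (7.26%) and AGATAA in 6 (10.3%). Counts do not tell which start site was used, and windows of 1 gene share sequence.

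Between the protocols, 4 of the 8 tested genes, PDE10A among them, were higher in AM and 1 was lower. Over the means of the 4 AM and the 4 VM groups, PDE3A was 3.01-fold, PDE2A 2.89-fold, PDE10A 2.17-fold and PDE4D 2.16-fold higher in AM, and PDE5A was 1.44-fold lower. Without PDE10A, 3 of 7 were higher and 1 lower. PDE1C, PDE4B and PDE8A did not pass the test. All tests are edgeR quasi-likelihood tests with Benjamini-Hochberg adjustment over all 17724 genes, called below 0.05. The count of 5 of 8 stands beside 34.5% of all tested genes called between the protocols, 16.8% higher and 17.6% lower in AM. The median log2 fold change of the 8 genes, PDE10A included, was 0.60, and that of all tested genes was −0.01. Without PDE10A the middle of the 7 values was that of PDE8A, at 0.09. In bulk RNA, a larger share of cells that express a gene and more RNA per cell cannot be told apart.

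**Figure D1:**
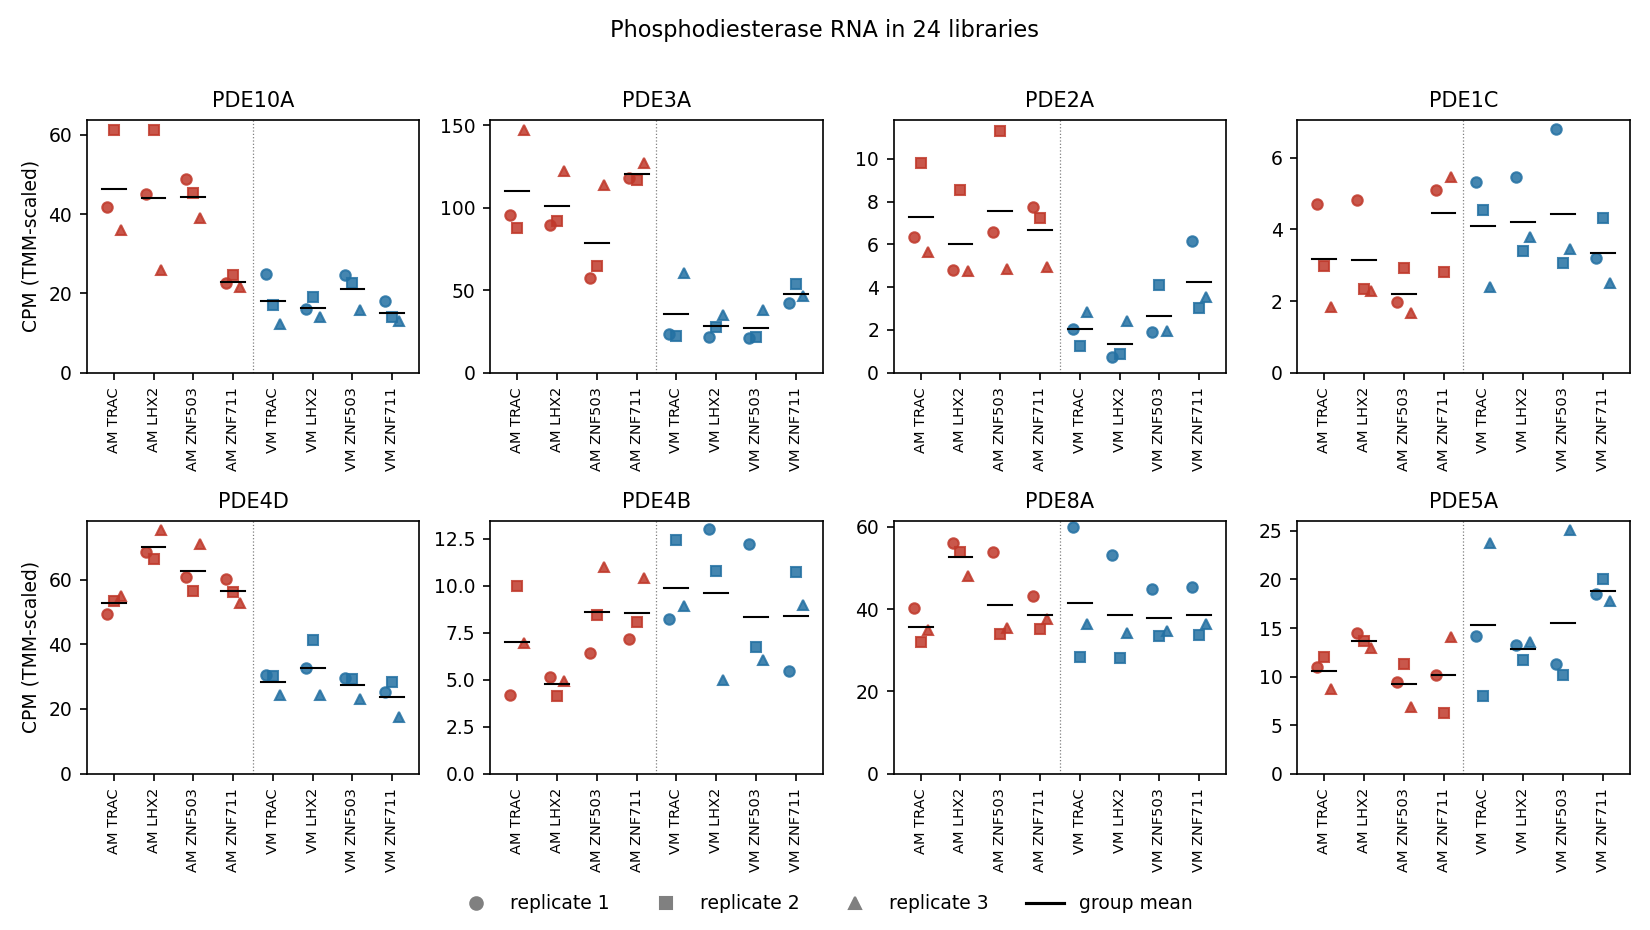
CPM (TMM-scaled) of the 8 tested phosphodiesterase genes in each of the 24 libraries, with AM groups in red and VM groups in blue, symbols for the replicate number and black bars for the group mean of 3 libraries. PDE4D does not overlap between AM (49.4 to 75.3 CPM) and VM (17.6 to 41.2 CPM), while the AM ZNF711 libraries hold the lowest PDE10A of the AM protocol (21.6 to 24.6 CPM).

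PDE10A (ENSG00000112541, chromosome 6, 165327287 to 165988078, minus strand, GRCh38) encodes an enzyme that cuts both cyclic nucleotides. It was at 41.8, 61.3 and 36.1 CPM in replicates 1, 2 and 3 of AM TRAC. AM LHX2 had 45, 61.3 and 26.0 CPM, AM ZNF503 had 48.8, 45.2 and 39.0 CPM, and AM ZNF711 had 22.5, 24.6 and 21.6 CPM. In each of the first 3 groups at least 1 library was above 45 CPM, whereas all 3 AM ZNF711 libraries were below every other AM library, the next being AM LHX2 replicate 3 at 26.0 CPM.

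In the VM protocol PDE10A was at 25.0, 17.1 and 12.2 CPM in TRAC, 16, 19.1 and 14 CPM in LHX2, 24.6, 22.7 and 15.7 CPM in ZNF503 and 18.1, 14.1 and 13.0 CPM in ZNF711. These 4 groups overlap one another. The group means, from the highest, were 46.4 ± 13.3 (SD, n = 3) in AM TRAC, 44.3 ± 4.94 in AM ZNF503, 44.1 ± 17.6 in AM LHX2, 22.9 ± 1.52 in AM ZNF711, 21 ± 4.7 in VM ZNF503, 18.1 ± 6.46 in VM TRAC, 16.4 ± 2.58 in VM LHX2 and 15 ± 2.67 in VM ZNF711. Neighbours in this order differ by less than the larger of their SDs, except AM LHX2 and AM ZNF711, so the order above and below that gap is not resolved.

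In the 2 comparisons that share no library with the choice of PDE10A, it was higher in AM. The log2 fold change was 1.42 ± 0.28 (SE) in LHX2 (adjusted p = 0.00142) and 1.08 ± 0.28 in the libraries labelled ZNF503 (adjusted p = 0.0121), with no overlap of 3 AM and 3 VM libraries in either. The ZNF503 call was lost without AM ZNF503 replicate 1 (adjusted p = 0.0521) or VM ZNF503 replicate 3 (adjusted p = 0.0775), while the fold changes stayed at 1.01 and 0.91. In TRAC the log2 fold change was 1.37 ± 0.28 and in ZNF711 0.61 ± 0.29, both given as descriptions and both without overlap. Within a target, 4 of the 8 genes were called in TRAC (11.3% of all tested genes), 4 in LHX2 (8.56% of all), 3 in ZNF503 (8.86% of all) and 2 in ZNF711 (13.2% of all), and every one of them was higher in AM. The TRAC count includes PDE10A and is 3 of 7 without it.

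PDE3A, a cyclic AMP phosphodiesterase that cyclic GMP inhibits and the target of the cardiac drug milrinone, had the highest median level per kilobase of the family in AM. AM libraries held 95.4, 87.7 and 147 CPM in TRAC, 89.6, 91.8 and 122 CPM in LHX2, 57.5, 64.8 and 114 CPM in ZNF503 and 118, 117 and 127 CPM in ZNF711. VM libraries held 23.4, 22.5 and 60.6 CPM in TRAC, 21.6, 27.8 and 34.8 CPM in LHX2, 21.1, 21.4 and 38.0 CPM in ZNF503 and 42.5, 53.8 and 46.4 CPM in ZNF711. Within every target the 3 AM libraries were above the 3 VM libraries, and over all groups only AM ZNF503 replicate 1 was below the highest VM library, VM TRAC replicate 3.

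PDE3A was called higher in AM with all 4 targets. The log2 fold change was 1.62 ± 0.33 (adjusted p = 0.00256) in TRAC, 1.85 ± 0.34 (adjusted p = 0.00116) in LHX2, 1.55 ± 0.34 (adjusted p = 0.00511) in ZNF503 and 1.34 ± 0.33 (adjusted p = 0.0101) in ZNF711. These 4 comparisons share no library. Replicate 3 held the highest PDE3A in 7 of the 8 groups, all but VM ZNF711, so levels were also set side by side within each replicate number. AM and VM did not overlap in replicate 1 (57.5 to 118 against 21.1 to 42.5 CPM), replicate 2 (64.8 to 117 against 21.4 to 53.8 CPM) or replicate 3 (114 to 147 against 34.8 to 60.6 CPM).

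PDE2A, which cuts both nucleotides and is stimulated by cyclic GMP, was a low member of the family, at a median of 0.899 CPM per kb of exon in AM and 0.31 CPM per kb in VM. It was at 6.33, 9.83 and 5.65 CPM in AM TRAC and 2.05, 1.24 and 2.83 CPM in VM TRAC. AM LHX2 had 4.82, 8.53 and 4.75 CPM against 0.752, 0.85 and 2.4 CPM in VM LHX2, where replicates 1 and 2 held 4 counts each. AM ZNF711 had 7.77, 7.25 and 4.94 CPM against 6.18, 3.01 and 3.55 CPM in VM ZNF711, the only target where PDE2A overlapped between protocols. AM ZNF503 had 6.59, 11.3 and 4.83 CPM and VM ZNF503 1.88, 4.09 and 1.93 CPM.

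PDE2A was called higher in AM in TRAC (log2 fold change 1.8 ± 0.49, adjusted p = 0.0159) and LHX2 (2.16 ± 0.53, adjusted p = 0.00913). In ZNF503 it was 1.51 ± 0.48 with an adjusted p of 0.0515, which became 0.0254 with the replicate number as a block (14.9% of all genes called). In ZNF711 it was 0.66 ± 0.47 (adjusted p = 0.397). The difference between ZNF711 and TRAC in this AM to VM change was −1.14 ± 0.68 (adjusted p = 0.885), so the targets were not shown to differ. The TRAC call was lost without replicate 2 of AM TRAC (adjusted p = 0.0989) or of VM TRAC (adjusted p = 0.0712), and the LHX2 call without AM LHX2 replicate 2 (adjusted p = 0.0685) or VM LHX2 replicate 1 or 2 (adjusted p = 0.0531 and 0.0516).

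PDE1C and PDE1A are activated by calcium and calmodulin. PDE1C was at 1.67 to 5.46 CPM in AM (median 2.87) and 2.38 to 6.8 CPM in VM (median 3.62), with a log2 fold change of −0.35 ± 0.24 (adjusted p = 0.29). In ZNF503 its 3 AM libraries were below its 3 VM libraries, at −1.0 ± 0.49 (adjusted p = 0.262). PDE1A had 39 counts over the 12 AM libraries and 11 over the 12 VM libraries, with 13 of them in AM ZNF711 replicate 1. It was at 0 in 2 AM and 7 VM libraries, too few counts for a test.

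PDE4D is the cyclic AMP phosphodiesterase that sits at the ryanodine receptor and the beta-adrenergic receptors of heart muscle cells, and it separated the protocols without overlap. AM libraries held 49.4, 53.5 and 55.0 CPM in TRAC, 68.4, 66.4 and 75.3 CPM in LHX2, 60.8, 56.4 and 70.9 CPM in ZNF503 and 60.1, 56.2 and 52.8 CPM in ZNF711. VM libraries held 30.6, 30.3 and 24.4 CPM in TRAC, 32.7, 41.2 and 24.2 CPM in LHX2, 29.6, 29.2 and 23.0 CPM in ZNF503 and 25.2, 28.2 and 17.6 CPM in ZNF711. The lowest of the 12 AM libraries was thus above the highest of the 12 VM libraries, VM LHX2 replicate 2.

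The log2 fold change of PDE4D was 1.11 ± 0.09 over the protocol means (adjusted p = 7.1e-10). It was 0.89 ± 0.18 (adjusted p = 0.00178) in TRAC, 1.1 ± 0.18 (adjusted p = 0.000235) in LHX2, 1.2 ± 0.19 (adjusted p = 7.92e-05) in ZNF503 and 1.25 ± 0.19 (adjusted p = 6e-05) in ZNF711. No setting tried ended any of these calls. PDE4D spans 1553.1 kb of chromosome 5, from 58969038 to 60522120, and has many start sites, of which a count per gene does not tell one from another.

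PDE4B, another cyclic AMP phosphodiesterase of heart muscle, did not pass the test. It was at 4.14 to 11 CPM in AM (median 7.04) and 5 to 13 CPM in VM (median 8.96), with a log2 fold change of −0.36 ± 0.19 (adjusted p = 0.167). Its widest gap was in LHX2, at 5.14, 4.14 and 4.94 CPM in AM and 13, 10.8 and 5 CPM in VM, with a log2 fold change of −1.02 ± 0.4 (adjusted p = 0.131). The LHX2 groups overlapped through VM LHX2 replicate 3.

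**Figure D2:**
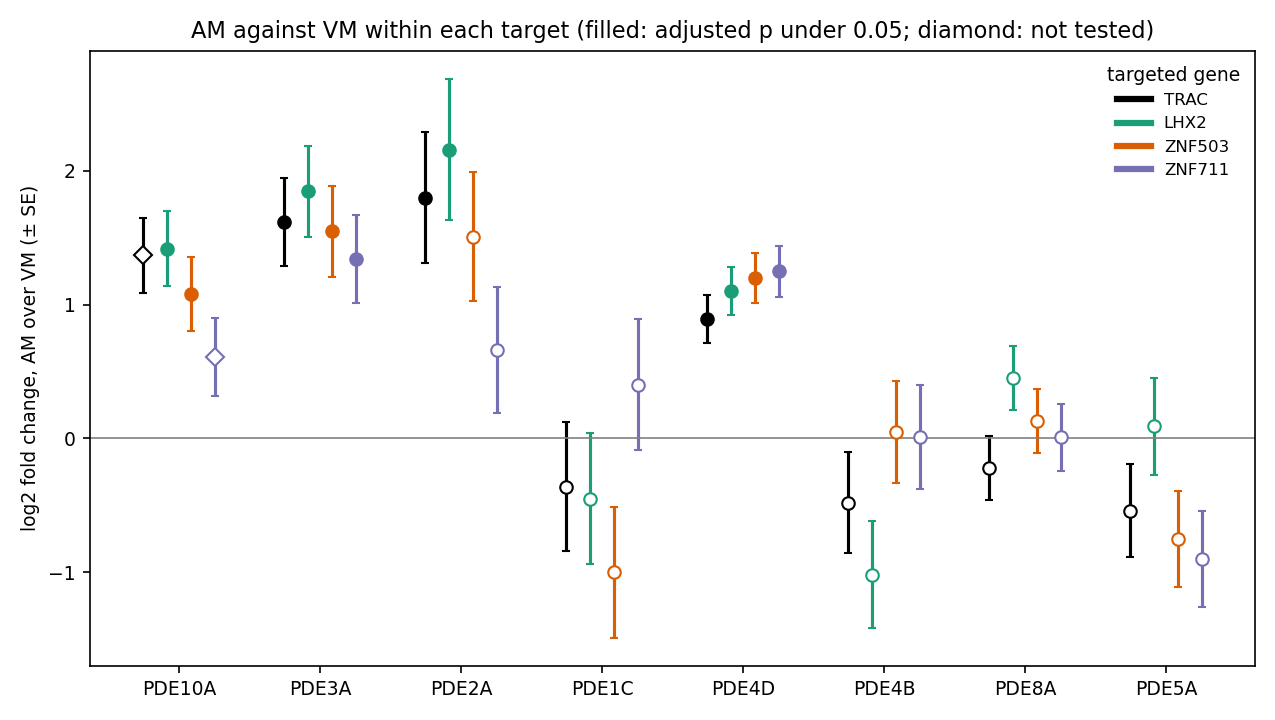
Log2 fold change of AM over VM with its SE for 8 phosphodiesterase genes in cells of each of the 4 targets, 3 libraries against 3. Filled circles have an adjusted p below 0.05 by edgeR, open circles do not, and diamonds mark PDE10A where its choice used one of the groups; PDE3A and PDE4D are filled with all 4 targets.

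PDE8A, a cyclic AMP phosphodiesterase of high affinity, did not differ between the protocols beyond its spread. It was at 32 to 56.2 CPM in AM (median 38.9) and 28.1 to 59.9 CPM in VM (median 35.6), with a log2 fold change of 0.09 ± 0.12 (adjusted p = 0.611). Replicate 1 of the VM protocol stood highest, at 45 to 59.9 CPM, against 28.1 to 33.7 CPM in replicate 2 and 34.2 to 36.5 CPM in replicate 3. In LHX2 the AM to VM change was 0.45 ± 0.24 (adjusted p = 0.315), and with the replicate number as a block it was called, at 0.5 ± 0.16 (adjusted p = 0.0282, with 15.7% of all genes called). PDE8B had 67 counts in all libraries, 29 in AM and 38 in VM. It shares 383 exon bases with WDR41 on the opposite strand, which had 6435 counts. It also shares 2889 of its 6944 exon bases with AC022414.1 on its own strand, which had 0 counts. Whether counting used the strand or left out reads in shared bases is not given in the sources used here, so the PDE8B count may be too low.

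PDE5A, the cyclic GMP phosphodiesterase that sildenafil inhibits, was the one gene lower in AM. AM libraries held 11, 12 and 8.75 CPM in TRAC, 14.5, 13.7 and 12.9 CPM in LHX2, 9.39, 11.3 and 6.87 CPM in ZNF503 and 10.2, 6.24 and 14.1 CPM in ZNF711. VM libraries held 14.2, 8.04 and 23.8 CPM in TRAC, 13.2, 11.7 and 13.6 CPM in LHX2, 11.3, 10.2 and 25.1 CPM in ZNF503 and 18.5, 20.1 and 17.8 CPM in ZNF711. The highest values were thus in replicate 3 of VM TRAC and VM ZNF503 and in all 3 VM ZNF711 libraries, and 7 of the 12 VM libraries were within the AM range.

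Over the protocol means the log2 fold change of PDE5A was −0.53 ± 0.18 (adjusted p = 0.0228). The call was lost without VM TRAC replicate 3 (−0.4, adjusted p = 0.0695), without VM ZNF503 replicate 3 (−0.38, adjusted p = 0.0775), without AM ZNF711 replicate 2 (−0.45, adjusted p = 0.0521) and without replicate 3 of every group (−0.26, adjusted p = 0.288). Within a target PDE5A was not called, with the nearest in ZNF711 at −0.9 ± 0.36 (adjusted p = 0.0985), where AM and VM did not overlap. With the replicate number as a block this became −0.94 ± 0.32 (adjusted p = 0.0335), and the count of genes called in ZNF711, PDE10A included, rose from 2 to 4 of 8 beside 23.4% of all genes (27.8% with the block within each protocol).

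Levels of different genes were compared per kilobase of exon, since CPM favours long transcripts. In AM, PDE3A led the 24 genes at a median of 12.4 CPM per kb, followed by PDE7A at 5.61, PDE8A at 4.93, PDE9A at 4.51, PDE6D at 4.36, PDE4D at 3.57 and PDE11A at 3.39 CPM per kb. In VM, PDE7A led at a median of 6.11 CPM per kb, followed by PDE9A at 4.76, PDE8A at 4.51, PDE6D at 4.19 and PDE3A at 3.73 CPM per kb. PDE10A had a median of 1.83 CPM per kb in AM and 0.752 in VM, so that it was below PDE3A in every library of either protocol. The ranges of PDE7A, PDE8A, PDE9A and PDE6D overlap, and their order is not resolved.

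Summed over the 24 genes, the family was at 50.5 to 55.9 CPM per kb in AM and 38.4 to 46.1 CPM per kb in VM, without overlap. The sum is over genes by name and not over enzyme activity. It includes PDE6D, at a median of 8.1% in AM and 9.17% in VM. PDE3A made up a median of 23.5% of that sum in AM (13.6% to 31.7%) and 8.79% in VM (5.54% to 15.8%). PDE4D made up 6.9% and 4.01%, and PDE10A 3.46% and 1.86%. PDE8A took 9.28% in AM and 10.8% in VM. Exon lengths are unions over all annotated transcripts, so levels per kilobase are approximate.

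**Figure D3:**
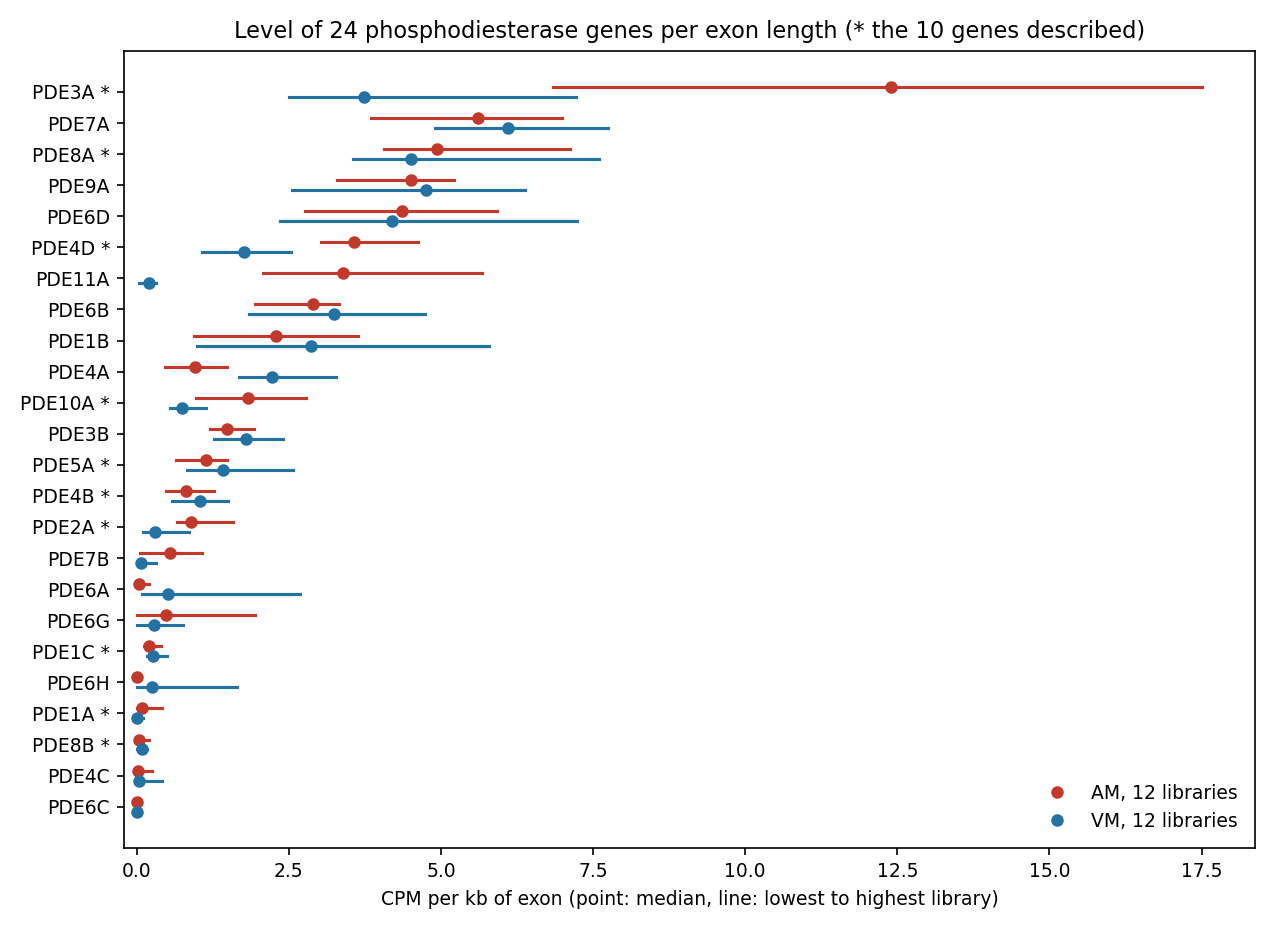
Median CPM per kilobase of exon of the 24 phosphodiesterase genes over 12 AM (red) and 12 VM (blue) libraries, with lines from the lowest to the highest library, and asterisks at the 10 genes described. PDE3A has the highest AM median (12.4 CPM per kb), and PDE11A has a VM range near 0 (up to 0.323 CPM per kb).

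Among the 14 other phosphodiesterases, 10 were tested, 2 were higher and 2 lower in AM, with a median log2 fold change of −0.18. PDE11A, which cuts both nucleotides, had the largest change among the 18 tested genes of the family. It was at 25.4 to 69.5 CPM in AM and 0.469 to 3.95 CPM in VM, a log2 fold change of 4.25 ± 0.19 (adjusted p = 5.69e-15). PDE7B, specific for cyclic AMP, was at means of 2.95 and 0.695 CPM (log2 fold change 1.99 ± 0.51, adjusted p = 0.00334). PDE4A, also specific for cyclic AMP, was at 3.07 to 9.89 CPM in AM and 11.3 to 21.8 CPM in VM (−1.27 ± 0.16, adjusted p = 9.15e-07), so that PDE4A and PDE4D moved in opposite directions, each without overlap. PDE6A, a rod photoreceptor subunit, was at 26 counts in the AM and 414 in the VM libraries (−3.78 ± 0.55, adjusted p = 9.83e-06).

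The enzymes that make the 2 messengers changed in both directions. Of 10 adenylyl cyclases 3 were higher and 3 lower in AM. ADCY5, a main cyclase of heart muscle and striatum, was at a mean of 220 CPM in AM and 31.3 CPM in VM (log2 fold change 2.84 ± 0.13, adjusted p = 1.75e-14) and was called with each target. ADCY8, stimulated by calcium, was at 3.04 and 18.9 CPM (−2.67 ± 0.23, adjusted p = 8.53e-10), and ADCY4 was at 12.7 and 5.34 CPM (1.28 ± 0.22, adjusted p = 7e-05). Of 8 guanylyl cyclase genes 7 were tested, 3 higher and 2 lower, among them the soluble subunit GUCY1A2 (0.89 ± 0.16, adjusted p = 0.000101), the receptor for C-type natriuretic peptide NPR2 (0.46 ± 0.12, adjusted p = 0.00369) and the retinal cyclase GUCY2D (−1.77 ± 0.52, adjusted p = 0.00934).

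Of 14 receptors that raise or lower the messengers, 12 were tested, 6 higher and 1 lower in AM, with a median log2 fold change of 1.09. VIPR2, a receptor for vasoactive intestinal peptide, was at 31.8 and 7.61 CPM (2.07 ± 0.13, adjusted p = 2.21e-12). GLP1R was at 9.99 and 1.06 CPM (3.28 ± 0.28, adjusted p = 1.03e-09), and CHRM2, the muscarinic receptor through which the vagus nerve lowers cyclic AMP, at 80.5 and 30.7 CPM (1.38 ± 0.12, adjusted p = 2.41e-09). The counts for the lists stand beside the same 34.5% of all genes called.

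Of 20 effectors, the kinases, channels and other proteins that bind the messengers, 18 were tested, 10 higher and 4 lower. The cyclic GMP-dependent kinases PRKG2 (13.6 and 1.9 CPM, 2.86 ± 0.22, adjusted p = 1.68e-10) and PRKG1 (28.1 and 13.4 CPM, 1.07 ± 0.13, adjusted p = 3.32e-07) were higher in AM, as was POPDC3, a popeye protein that binds cyclic AMP (0.72 ± 0.12, adjusted p = 2.72e-05). Of 11 anchoring proteins, which hold phosphodiesterases and kinases in place, 1 was higher and 2 lower. PDE4DIP, which binds PDE4D, was at 98.4 CPM in AM and 145 CPM in VM (−0.54 ± 0.1, adjusted p = 0.000125), opposite in direction to PDE4D.

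Against TRAC within a protocol, 0 of the 7 genes other than PDE10A passed the test in any of the 6 comparisons by edgeR, and 0 by DESeq2, and in the 3 VM comparisons PDE10A did not pass it either. Over all genes 0% were called by edgeR at an adjusted p under 0.05 in 5 of these comparisons and 0.0169% in VM ZNF711. The share of all genes called by DESeq2 was not counted, so nothing is read from the DESeq2 count. At an unadjusted p under 0.05 there were 2 of these 7 in AM LHX2 and 0 in the other 5 comparisons. The share of all genes at that unadjusted threshold was not counted, so nothing is read from the 2. Comparisons within a protocol share the same 3 TRAC libraries, so their values are not independent.

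PDE10A was at a log2 fold change of −1.02 ± 0.27 in AM ZNF711 against AM TRAC, which is the value it was chosen for. The share of all genes called in that comparison was 0% without a block. It was 0.0395% with the replicate number as a block and 0.53% with the block within each protocol. Because PDE10A was chosen on this comparison, nothing is read for PDE10A from these shares. Against VM TRAC, in libraries the choice did not use, VM ZNF711 was at −0.26 ± 0.29 (adjusted p = 0.811) and the groups overlapped. In AM LHX2 and in AM ZNF503 against AM TRAC it was at −0.08 ± 0.27 and −0.07 ± 0.26, and in VM LHX2 and VM ZNF503 against VM TRAC at −0.14 ± 0.28 (adjusted p = 1) and 0.22 ± 0.28 (adjusted p = 1). The sign of each of these, VM ZNF711 included, turned when 1 library was left out. The AM minus VM difference of the ZNF711 change was −0.75 ± 0.4, again a description.

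Marker sums were set side by side for AM ZNF711 and AM TRAC, in that order. The endothelial sum of 6 genes was 413 to 469 and 541 to 762 CPM and the epicardial sum of 5 genes 23.3 to 58.3 and 73.9 to 81.8 CPM. The neural sum of 6 genes was 48.1 to 68.9 and 73.4 to 123 CPM. All were lower in AM ZNF711 without overlap, and the share of all genes without overlap there was not counted. Single libraries of other AM groups went lower still. The endothelial sum was 393 to 621 CPM and the epicardial sum 22.4 to 68.3 CPM in AM LHX2, and the neural sum 36.2 to 81.5 CPM in AM ZNF503. Over all AM libraries the neural sum was mostly DCX, at a mean of 63.8 CPM, with PAX6 next at 6.99 CPM. The epicardial sum was mostly TBX18, at 44.5 CPM, with ALDH1A2 next at 8.5 CPM. The sum of 4 genes of striatal neurons, the cells best known for PDE10A, was 13.3 to 17.2 and 8.02 to 12.5 CPM. AM LHX2 replicate 3 (14.83 CPM) and AM ZNF503 replicate 1 (14.33 CPM) were within the AM ZNF711 range. These genes were low, with AM means of 5.91 CPM for DRD1, 2.5 for ADORA2A, 2.28 for PPP1R1B and 0.783 for DRD2, so nothing is read from their sum. The cardiomyocyte sum (20500 to 29600 and 18600 to 21900 CPM), the fibroblast sum of 8 genes (4270 to 5850 and 5710 to 7030 CPM) and the hepatic sum (768 to 1600 and 229 to 833 CPM) overlapped, as did the atrial, ventricular, smooth muscle and pluripotency sums. edgeR called none of the genes on these lists between the 2 groups. It called 0% of all tested genes there, so nothing is read from the lack of calls. The part of these cell types in the PDE10A value was not tested.

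PDE8A, PDE4D and PDE5A did not overlap between AM LHX2 and AM TRAC. The share of all genes without overlap there was not counted, and edgeR without a block called 0% of all tested genes. PDE8A was at 56.2, 53.8 and 48.1 CPM in AM LHX2 and 40.3, 32.0 and 35.0 CPM in AM TRAC. This is 0.56 ± 0.24 on the log2 scale (adjusted p = 0.604). It was called only with a replicate block fitted within each protocol (adjusted p = 0.0248), under which 3.11% of all genes were called, and not with 1 block over both (adjusted p = 0.0648). PDE4D was at 0.41 ± 0.18 (adjusted p = 0.604) and PDE5A at 0.36 ± 0.36 (adjusted p = 0.857). In VM, LHX2 libraries overlapped TRAC libraries for all 8 genes.

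In VM ZNF711 the 3 libraries were above the 3 VM TRAC libraries for PDE2A, at a log2 fold change of 1.02 ± 0.5 (edgeR adjusted p = 0.543). PDE3A was at 0.41 ± 0.34 (adjusted p = 0.74) and overlapped through VM TRAC replicate 3 at 60.6 CPM. Without that library the log2 fold change was 1.04 (adjusted p = 0.0521), and without replicate 3 of every group it was 1.09 (adjusted p = 0.00185). None of the 7 genes other than PDE10A was called by edgeR or DESeq2 for a difference of a target's change between AM and VM. Of all genes, edgeR called 0% for LHX2 and ZNF503 and 0.00564% for ZNF711, and the share for DESeq2 was not counted. At an unadjusted p under 0.05 there were 0 of the 7, and the share of all genes at that threshold was not counted.

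**Figure D4:**
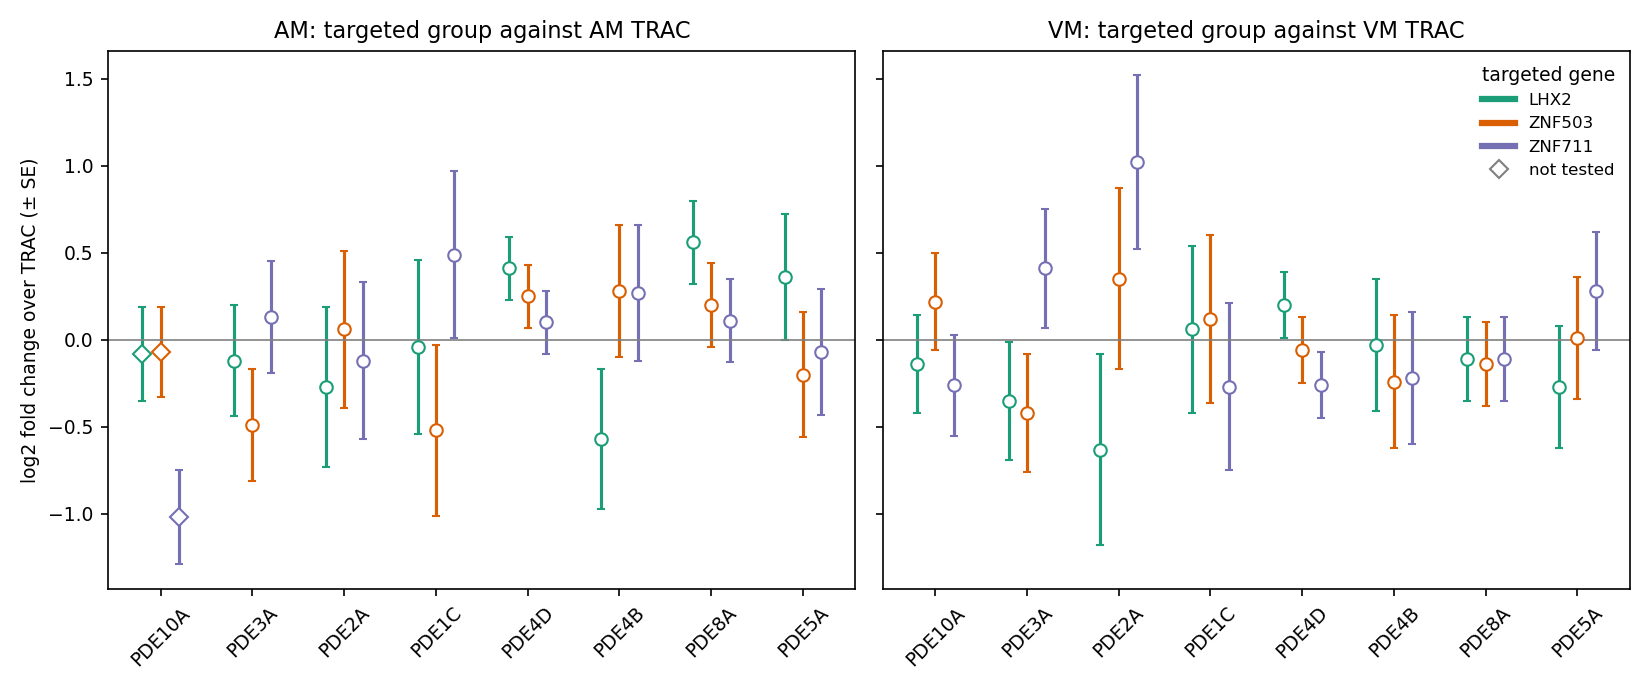
Log2 fold change with its SE of each targeted group over the TRAC group of the same protocol for 8 phosphodiesterase genes, 3 libraries against 3, AM on the left and VM on the right. Open symbols have an adjusted p of 0.05 or more, diamonds mark PDE10A in AM, which is not tested; the lowest point is PDE10A in AM ZNF711 at −1.02.

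Other cell types moved with the protocol and with the replicate number. The fibroblast sum was 4140 to 7320 CPM in AM and 1710 to 4920 CPM in VM (4 of 8 genes higher in AM, 0 lower), the smooth muscle sum of 5 genes 872 to 1840 and 575 to 1020 CPM (2 higher, 1 lower), and the endothelial sum 393 to 762 and 322 to 455 CPM (4 of 6 higher). The hepatic endoderm sum was 153 to 1600 CPM in AM and 1080 to 18600 CPM in VM (4 of 7 lower). Of 10 cardiomyocyte genes 6 were lower in AM and 0 higher. The 5 smooth muscle genes did not move together. Means in AM and VM were 221 and 2.28 CPM for the myosin MYH11 and 537 and 284 CPM for ACTA2. They were 69.4 and 170 CPM for TAGLN, 83.9 and 97.3 CPM for CNN1 and 303 and 312 CPM for MYOCD. Smooth muscle is known for PDE3A and PDE5A, and endothelium for PDE2A. The part of these cells in the changes of PDE3A, PDE2A, PDE10A and PDE4D was not tested.

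Other marker lists were tested on the same libraries. Of 9 atrial genes 7 were higher and 1 lower in AM, and all 5 ventricular genes were lower, with MYL2 at 0 in 3 of the 4 AM groups. Of 5 epicardial genes 4 were tested, 1 higher and 2 lower, and of 6 neural genes 4 were tested and 2 were higher. Of 4 pluripotency genes 3 were tested and 2 were lower. The 4 striatal neuron genes summed to 7.39 to 17.2 CPM in AM and 7.1 to 19.3 CPM in VM, with 3 tested, 1 higher and 1 lower.

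Replicate 3 of VM TRAC, VM LHX2 and VM ZNF503 and all 3 VM ZNF711 libraries had a cardiomyocyte sum of 11550 to 20530 CPM, and the other 6 VM libraries 36490 to 41900 CPM. The same 6 libraries had a hepatic sum of 6358 to 18620 CPM, against 1079 to 2402 CPM. PDE3A was at 34.8 to 60.6 CPM in them and at 21.1 to 27.8 CPM in the other 6, and PDE10A at 12.2 to 18.1 and 16 to 25 CPM. The AM libraries had cardiomyocyte sums of 14980 to 29650 CPM with PDE3A at 57.5 to 147 CPM, of which AM ZNF503 replicate 1 alone was below VM TRAC replicate 3. What sets these libraries apart is not given in the sources used here, and their part in the PDE3A and PDE5A values was not tested.

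**Figure D5:**
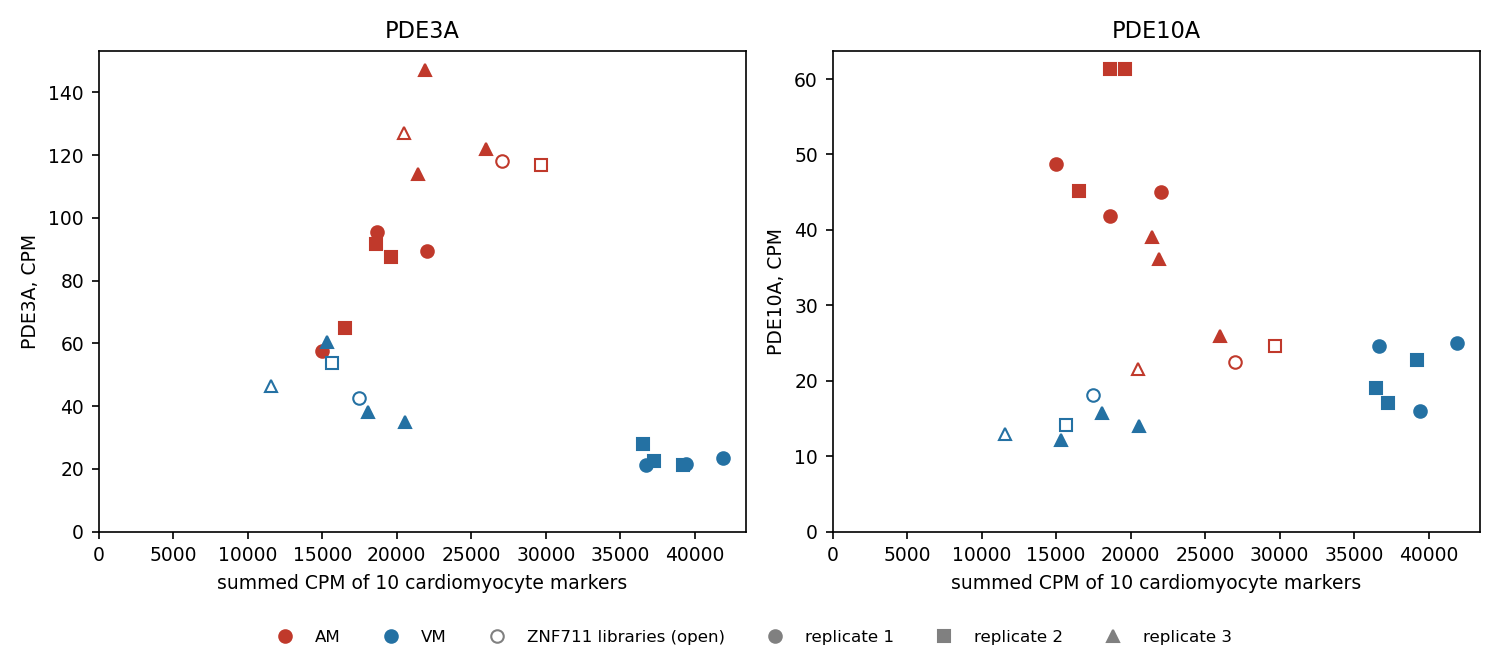
PDE3A (left) and PDE10A (right) in CPM against the summed CPM of 10 cardiomyocyte markers, 1 point per library, AM in red, VM in blue, ZNF711 libraries open and symbols for the replicate number. The VM libraries form 2 sets along the marker sum (11550 to 20530 and 36490 to 41900 CPM), and PDE3A is lower in the second set (21.1 to 27.8 CPM).

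Across the 24 libraries, the genes whose log2 CPM followed PDE10A most closely among 11427 genes were ZEB2 (Pearson r = 0.94), LRP1B (0.91), MIR100HG (0.91), ST8SIA1 (0.9) and NFIB (0.9). All 5 had a higher mean in AM, as PDE10A did, so the difference between protocols enters these values. With each protocol's mean taken off, the closest were ZEB2 (0.86), RIPOR2 (0.82), ELMO1 (0.8), TTC28 (0.79) and VCAN (0.79). Both orders are descriptions over libraries that share cell lines and replicate numbers and include those on which PDE10A was chosen. Ranked by Spearman correlation instead, 1 of the first 5 and 4 of the second 5 stayed in the list.

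Among the tested phosphodiesterases, with the protocol mean taken off, the correlation with PDE10A over the 24 libraries was −0.66 for PDE3A, 0.26 for PDE4D, 0.24 for PDE8A and 0.12 for PDE2A. For PDE1C, PDE4B and PDE5A it was −0.04, −0.1 and −0.14. These values include the AM ZNF711 and AM TRAC libraries on which PDE10A was chosen, and nothing is drawn from them. In replicate 3, PDE3A had its highest means (127 CPM in AM and 45 CPM in VM) and PDE10A its lowest (30.7 and 13.7 CPM), each over 4 libraries.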

How the data were processed

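Gene counts from 24 libraries were analysed as deposited by the authors, as whole-number counts per Ensembl gene. Per the submitters' processing notes, STAR and GRCh38 were used; the counter, strand setting and annotation release are not given in the sources used here. The labels name both polyA RNA and a ribosomal depletion kit, which bears on unpolyadenylated RNA. Symbols came from GENCODE 29 and the reference tables (62686 of 62757 IDs). In R 4.3.3, edgeR 4.0.16 (TMM, filterByExpr, robust quasi-likelihood, 1 mean per group over 24 libraries, 16 residual degrees of freedom) gave tests with Benjamini-Hochberg adjustment over 17724 genes for 14 comparisons. DESeq2 1.42.0, other scalings, filters, samples in the fit, replicate blocks and left-out libraries were alternatives. CPM are TMM-scaled. Same-numbered replicates correlated in their deviations from group means in 30 of 30 pairs (r 0.12 to 0.79, 11428 genes). Replicates of different numbers were not set beside them, and the labels state no pairing. Deviations within a group cancel out, so positive values for same-numbered replicates imply negative ones, on average, between different numbers. Same-numbered replicates thus shared part of their deviations. The main tests were set without a block because no label states one, and they do not use this shared part. Results with the replicate number as a block are given where a call changed. The fits were tested on simulated data. All members are reported. Beside them, the genes named are the called genes with the lowest p of each pathway list (at most 3, and every called gene of the other phosphodiesterases) and the 5 most correlated with PDE10A. The members and lists were chosen with earlier results of these data known. A further gene of the striatal neuron list is not reported here.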

Additional observations from a re-analysis of the deposited data

How the results depend on the processing

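With the replicate number as a block, over both protocols or within each, the number of the 8 genes called between AM and VM in ZNF711 was 4, PDE10A included, instead of 2. In AM ZNF711 against AM TRAC it was 1 instead of 0 under both blocks and with no filter on low counts, but that gene is PDE10A, which was chosen on this comparison, so nothing is read from it. In AM LHX2 against AM TRAC it was 1 with the block within each protocol. The cause was not tested. With 1 library or replicate 3 of every group left out, the number called was 4 to 5 for the protocol means, 3 to 4 in TRAC, 3 to 4 in LHX2, 2 to 4 in ZNF503, 2 to 3 in ZNF711 and 0 to 1 in VM ZNF711 against VM TRAC. In those fits PDE10A changed sign, with log2 fold changes of −0.4 to 0.19 in AM LHX2 and −0.22 to 0.19 in AM ZNF503 against AM TRAC. It was −0.37 to 0.16 in VM LHX2, −0.01 to 0.52 in VM ZNF503 and −0.51 to 0.04 in VM ZNF711 against VM TRAC, and −0.26 to 0.33 for the LHX2 difference between protocols. PDE5A between the protocol means lost its call with library size alone (−0.44, edgeR adjusted p = 0.0525), and PDE2A in TRAC with only the groups compared in the fit (1.8, adjusted p = 0.0568). By Spearman correlation, 1 of the 5 genes most like PDE10A stayed. At 3 counts, or 0.447 to 0.963 CPM, PDE1A and PDE8B were near the limit of detection.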
